A study of Rattus norvegicus with 4 samples.

Results

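Pyroptosis and necroptosis are forms of lytic cell death, and 10 genes of their machinery were followed in cultured rat heart muscle cells depleted of Crat, the gene of carnitine acetyltransferase. The genes were Casp1, Casp4, Casp8, Gsdmd, Ninj1, Zbp1, Ripk1, Ripk3, Mlkl and Pycard, taken by symbol from the deposited table, where all 10 were present on a row of their own among 14137 gene identifiers. The cells were neonatal rat ventricular myocytes (NRVMs), a primary culture. They received a lentivirus with either a control shRNA, the arm labelled WT, or a CRAT shRNA, the arm labelled KO, and RNA was taken after 5 days. The labels thus name a knockout where the design text describes a knockdown; the arms are called control hairpin and Crat hairpin here. All 4 libraries carry a lentiviral hairpin, there were 2 per arm, and no uninfected cells are part of the comparison. Neither the hairpin sequence nor the number of different hairpins is given in the sources used here.

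In pyroptosis, an inflammasome built on the adaptor Pycard (ASC) activates the protease Casp1, while Casp4, the rat counterpart of mouse caspase-11, binds bacterial lipopolysaccharide directly. These caspases cut Gsdmd, whose freed part forms pores, and Ninj1 then ruptures the plasma membrane. In necroptosis, Ripk1 or the nucleic acid sensor Zbp1 engages the kinase Ripk3 through a shared interaction motif, and Ripk3 phosphorylates Mlkl, which permeabilises the membrane. Casp8 cleaves Ripk1 and Ripk3 and so holds necroptosis back, and it can itself cut Gsdmd. All of these proteins are controlled by cleavage, phosphorylation or assembly, which transcript levels do not report.

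Depth was very uneven. The values are RPM, reads scaled to their total over the gene identifiers of the deposited table. Reads here are the whole counts recovered from these values, not all reads sequenced. Behind them stand 23680064 reads for control replicate 1, 1321735 for control replicate 2, 321516 for Crat hairpin replicate 1 and 1622998 for Crat hairpin replicate 2. A value of 9.33 RPM in Crat hairpin replicate 1 is therefore 3 reads. RPM is not divided by gene length, so levels are compared between libraries and not between genes. Crat itself stood at 148 and 156 RPM in the controls and at 24.9 and 19.7 RPM with the Crat hairpin. Of 13 tested cardiomyocyte markers 10 fell and 0 rose (limma; at unadjusted p under 0.05 also 0 rose, and 0 by edgeR and by DESeq2), and their summed level was 32997 and 33483 RPM in the controls against 13212 and 13595 RPM. In a bulk culture, fewer cells of a type and less RNA per cell cannot be told apart.

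Of the 10 genes, 7 rose with the Crat hairpin and 0 fell, by a limma fit over 12949 genes on log2(RPM + 1) with a Benjamini-Hochberg adjusted p under 0.05. They were Zbp1, Mlkl, Ripk3, Ninj1, Casp4, Ripk1 and Gsdmd; Casp1, Pycard and Casp8 did not pass. Over all genes tested 12.6% were called higher and 6.36% lower by the same rule. The median log2 fold change of the 10 genes was 1.11, and that of all genes tested was 0.15. In 9 of the 10 genes both Crat hairpin libraries lay above both controls, an arrangement found in 39.1% of all genes tested. No member fell at an unadjusted p under 0.05 either (0 of 10). With edgeR on the reads recovered from the values 8 of 10 were higher and 0 lower, where 13.7% and 15.9% of genes were called. DESeq2 on the same reads called 4 higher and 0 lower, against 6.13% and 7.09% of genes. The authors' deposited table also has 4 higher and 0 lower, against 4.91% and 5.6% of its gene identifiers. The genes called higher by all of these were Zbp1, Mlkl, Ripk3 and Ninj1. Zbp1 and Casp1, with control means of 0.084 and 0.70 RPM, passed the filter (a mean of at least 1 RPM) only through the Crat hairpin arm. They had to be higher there, so they add no support to these counts or to the median of 1.11.

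**Figure D1:**
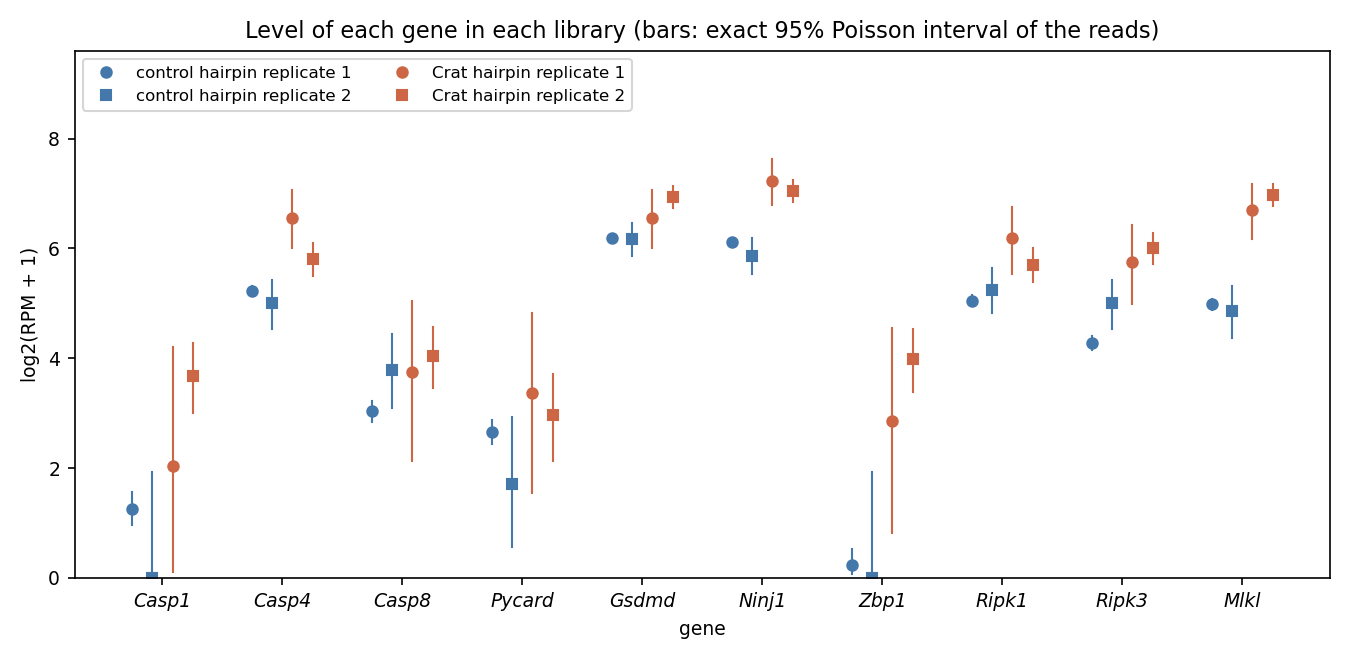
Level of each of the 10 genes in each library, as log2(RPM + 1), with control hairpin libraries in blue, Crat hairpin libraries in orange, circles for replicate 1 and squares for replicate 2; bars are exact 95% Poisson intervals of the reads and cover counting error only. The Crat hairpin points stand above both controls for every gene but Casp8, and the bars are widest for Casp1, Zbp1, Pycard and Casp8, where a library held fewer than 10 reads.

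The kinases and the effector of necroptosis come first. Mlkl, the pore-forming effector, was measured at 30.7 and 28.0 RPM in the controls and at 103 and 124 RPM with the Crat hairpin, from 726, 37, 33 and 202 reads. The groups did not overlap, and the lower Crat hairpin library was 3.35-fold above the higher control. Mlkl rose, with a log2 fold change of 1.91 ± 0.19 (± SE, n = 2 per arm where no library is left out; limma adjusted p = 8.6e-05), with a 95% interval from 1.50 to 2.33, and that change was higher than in 97.4% of the genes tested. Mlkl passed under every filter, pseudocount, scaling and variance setting tried, and in edgeR and DESeq2. It also passed in the 4 fits with a library left out, but each of these has an arm of 1 library, assumed to vary like the other arm, whose libraries alone give the spread. It did not pass after the reads of all libraries were thinned to the total of the shallowest (log2 fold change 1.89, adjusted p = 0.0697), a setting that left 127 changed genes in the whole table where 2454 had been called.

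Ripk3, the kinase that activates Mlkl, stood at 18.4 and 31.0 RPM in the controls and at 52.9 and 63.5 RPM with the Crat hairpin. The controls differed from each other, and their exact 95% Poisson intervals did not meet (16.7 to 20.2 and 22.3 to 42.1 RPM); the interval of the higher control overlapped that of Crat hairpin replicate 1, which rests on 17 reads. Ripk3 rose by 1.24 ± 0.28 (limma adjusted p = 0.0119), and its log2 fold change was 0.88 without control replicate 1, where it did not pass (adjusted p = 0.248), and 1.61 without control replicate 2. In the RefSeq annotation (assembly GRCr8) Ripk3 overlaps Nfatc4, and the sources used here do not say whether counting used strand.

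Ripk1, the kinase that relays death receptor signals, had 32.1 and 37.1 RPM in the controls and 71.5 and 51.1 RPM with the Crat hairpin. All Crat hairpin values exceeded all control values, but by no more than 1.38-fold at the nearest pair. Ripk1 rose by 0.79 ± 0.23 (limma adjusted p = 0.0364). The call was lost after median-of-ratios scaling (0.60, adjusted p = 0.101), without control replicate 1 (adjusted p = 0.407) or control replicate 2 (adjusted p = 0.124), and in the authors' deposited table (adjusted p = 0.463). Ripk1 overlaps Serpinb6a in the same annotation.

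Zbp1, the sensor of Z-form nucleic acid, had the largest change of the 10 and very few reads. It was counted with 4 reads among the 23680064 of control replicate 1 and with none in control replicate 2, where the exact 95% Poisson interval reaches up to 2.79 RPM. In the Crat hairpin libraries it had 2 and 24 reads, or 6.22 and 14.8 RPM, against 0.169 and 0 RPM in the controls. With the reads of each arm pooled, Zbp1 stood at 0.160 RPM in the controls and 13.4 RPM with the Crat hairpin, a ratio of 83.6 with an exact 95% interval from 29.0 to 330 that covers counting error only and takes nearly all control reads from 1 library. On the log2(RPM + 1) scale, which understates changes of low genes, Zbp1 rose by 3.30 ± 0.74 (limma adjusted p = 0.0127), against an edgeR log2 fold change of 5.93 (adjusted p = 5.9e-08). Zbp1 lost its limma call without control replicate 1 (adjusted p = 0.166) or control replicate 2 (adjusted p = 0.0787), while the value remained between 3.19 and 3.42. The Zbp1 log2 fold change was 1.55 with a pseudocount of 5.

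Casp8, the protease that restrains Ripk1 and Ripk3, was the member whose groups overlapped. It was at 7.18 and 12.9 RPM in the controls and at 12.4 and 15.4 RPM with the Crat hairpin, where replicate 1 held 4 reads. The Casp8 log2 fold change was 0.48 ± 0.41 (limma adjusted p = 0.467), with a 95% interval from -0.44 to 1.40, so neither no change nor a doubling on that scale lies outside it. It ran from 0.10 without control replicate 1 to 0.86 without control replicate 2, and in the thinned reads it was -0.47. Casp8 overlaps Cflar, the gene of its inactive partner FLIP, so reads of the pair are uncertain without strand. Cflar, counted with 433, 46, 17 and 100 reads, rose by 1.14 ± 0.30 (limma adjusted p = 0.0247), a call that median-of-ratios scaling ended (adjusted p = 0.0527).

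On the pyroptosis side, the membrane-rupture gene Ninj1 was measured at 68.7 and 57.5 RPM in the controls and at 149 and 131 RPM with the Crat hairpin. The nearest values of the arms differed 1.91-fold, and the 95% Poisson intervals of the arms did not meet. Ninj1 rose by 1.14 ± 0.16 (limma adjusted p = 7.4e-04), and its log2 fold changes with a library left out ran from 1.02 to 1.27, all past the threshold under the assumption given for Mlkl. It missed the threshold without a variance trend (adjusted p = 0.0778) and in the thinned reads (adjusted p = 0.100).

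Gsdmd, the pore-forming substrate of the inflammatory caspases, had nearly the same level in the controls, 72.3 and 71.1 RPM, and 93.3 and 121 RPM with the Crat hairpin. The lower of these, 30 reads, has a Poisson interval from 63.0 to 133 RPM that includes both controls. Gsdmd rose by 0.56 ± 0.17 (limma adjusted p = 0.0431), the smallest change among the 7. Its call was lost after median-of-ratios scaling (0.37, adjusted p = 0.171), with all genes tested and no filter (adjusted p = 0.0586), without control replicate 1 (adjusted p = 0.364) or control replicate 2 (adjusted p = 0.262), and in the authors' deposited table (adjusted p = 0.414).

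Casp4, the caspase of the noncanonical pathway, stood at 36.3 and 31.0 RPM in the controls. With the Crat hairpin it was at 93.3 and 54.8 RPM, from 30 and 89 reads. The Crat hairpin libraries differed more from each other than the controls did, yet both lay above the controls. Casp4 rose by 1.07 ± 0.26 (limma adjusted p = 0.0179), by 0.69 without Crat hairpin replicate 1 (adjusted p = 0.0147) and by 1.45 without Crat hairpin replicate 2 (adjusted p = 4.8e-05). It did not pass without control replicate 1 (adjusted p = 0.209) or control replicate 2 (adjusted p = 0.0578), nor in the authors' deposited table (adjusted p = 0.144). The edgeR log2 fold change of Casp4 was lower, 0.61 (adjusted p = 0.00468).

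Casp1, the caspase of the canonical inflammasome, was sparse. It had 33 reads in control replicate 1 (1.39 RPM), 0 in control replicate 2, 1 in Crat hairpin replicate 1 (3.11 RPM) and 19 in Crat hairpin replicate 2 (11.7 RPM). The higher values thus rest mainly on Crat hairpin replicate 2. The Casp1 log2 fold change of 2.22 ± 0.84 did not pass (limma adjusted p = 0.103), whereas edgeR called it (2.75, adjusted p = 0.00113), as did limma without Crat hairpin replicate 1 (3.04, adjusted p = 0.00308). The ratio of pooled reads for Casp1 was 7.79 with an exact 95% interval from 4.24 to 14.0, again of counting error only. Casp1 and Casp4 are neighbours and members of a family with related sequence, so their values are uncertain where reads from shared sequence had to be split. Casp1 also overlaps LOC134479989, a long noncoding RNA gene, in the RefSeq annotation (assembly GRCr8).

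Pycard, the inflammasome adaptor, was also near the limit of these libraries, at 5.28 and 2.27 RPM in the controls and 9.33 and 6.78 RPM with the Crat hairpin. These are 125, 3, 3 and 11 reads. Its log2 fold change of 0.98 ± 0.56 did not pass in limma (adjusted p = 0.271) or in edgeR (0.38, adjusted p = 0.662), and the 95% interval from -0.28 to 2.25 covers no change. Without control replicate 2 the Pycard log2 fold change was 0.51.

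**Figure D2:**
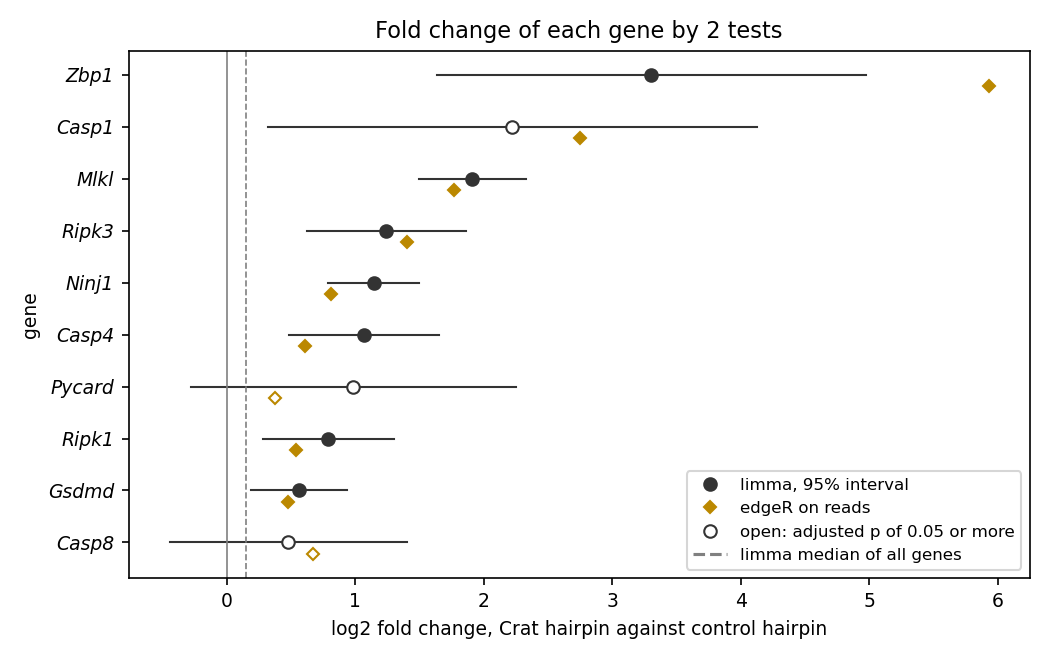
Log2 fold change of each gene, Crat hairpin against control hairpin, by limma on log2(RPM + 1) with 95% intervals (circles) and by edgeR on recovered reads (diamonds); open symbols did not reach an adjusted p under 0.05, and the dashed line is the limma median of all genes, 0.15. Every estimate lies to the right of 0, and the tests differ most for Zbp1, 3.30 in limma and 5.93 in edgeR.

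In order of size the limma changes ran Zbp1, Casp1, Mlkl, Ripk3, Ninj1, Casp4, Pycard, Ripk1, Gsdmd and Casp8, and the 95% intervals of each neighbouring pair in that order overlapped. The interval of Mlkl, from 1.50 to 2.33, began above the upper end of those of Ninj1 (1.49), Ripk1 (1.30), Gsdmd (0.94) and Casp8 (1.40). Median-of-ratios scaling moved the median of all genes from 0.15 to -0.03. Under it 5 of the 10 genes were called higher and 0 lower, with Ripk1 and Gsdmd lost, and 8.04% and 9.66% of genes were called higher and lower. Relative to the median of all genes in the RPM fit, Mlkl was higher by 1.76, Ripk3 by 1.09, Ninj1 by 0.99, Ripk1 by 0.64 and Gsdmd by 0.42. Casp1 and Zbp1 entered the fit only through the Crat hairpin arm, since their control means of 0.70 and 0.084 RPM are below the minimum mean of 1 RPM. Their fold changes, and Zbp1's place among the 7, therefore add no support for a rise of the group.

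**Figure D3:**
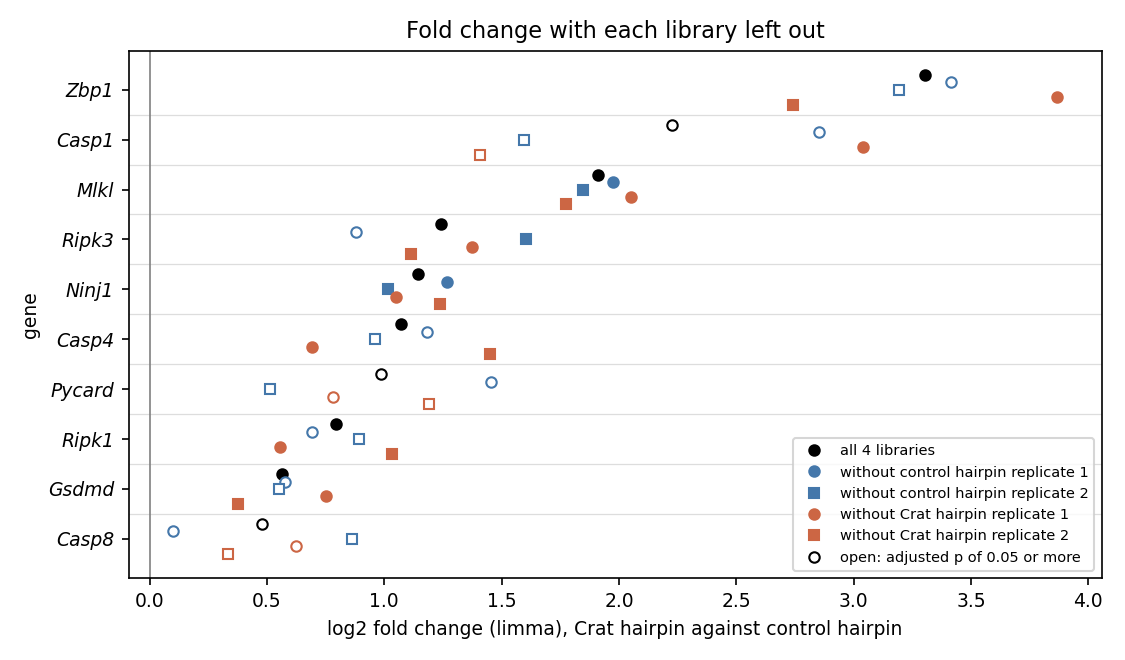
Limma log2 fold change of each gene with all 4 libraries (black) and with a control (blue) or Crat hairpin (orange) library left out, circles for replicate 1 and squares for replicate 2; open symbols did not reach an adjusted p under 0.05. Mlkl and Ninj1 are filled in every case, each time with an arm of 1 library, and all values lie above 0, the lowest being 0.10 for Casp8 without control replicate 1.

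The number of calls depended on which library was left out. Without control replicate 1, the deepest library, 2 of the 10 genes passed, Mlkl and Ninj1. Without control replicate 2 the count was 3, with Ripk3 added. Without Crat hairpin replicate 1, the shallowest library, 8 passed, Casp1 among them, and without Crat hairpin replicate 2 the count was 7. Over all genes tested, 601, 1271, 3882 and 6252 changed in these 4 fits, in the same order. With a control left out the spread comes from the Crat hairpin libraries alone, and with a Crat hairpin library left out from the controls alone, so passing in them is no sign of stability.

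The RefSeq promoter table (assembly GRCr8, 250 bases before to 50 after a start) held entries for 6 of the genes, Casp1, Ninj1, Ripk1, Ripk3, Mlkl and Pycard. Entries for Casp4, Casp8, Gsdmd and Zbp1 were not found. They were searched on both strands for GAAANNGAAA, a form of the interferon-stimulated response element (ISRE), and for TTCNNNGAA, the STAT-binding GAS element. Only the Casp1 window held an ISRE letter match, from 28 to 19 bases before the start, and none of the 6 held a GAS match. Among 33365 different promoter sequences of the same length, 3.92% hold the ISRE form and 8.88% the GAS form. The bases before the start of Casp1 are shown for the match, in capitals and written as its reverse complement. Those of Mlkl, Ripk3 and Ninj1, which had the largest rises among genes with an entry, are shown for comparison. Each run is 100 bases on the gene's strand and stops before the outermost annotated start, so those of Mlkl and Ninj1 end 29 and 85 bases before the start in the table. They lie at chr8:10872730-10872829 (+), chr19:56213887-56213986 (-), chr15:33262026-33262125 (-) and chr17:15668116-15668215 (-).
Casp1: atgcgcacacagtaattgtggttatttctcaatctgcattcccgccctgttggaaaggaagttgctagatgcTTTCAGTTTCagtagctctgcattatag
Mlkl: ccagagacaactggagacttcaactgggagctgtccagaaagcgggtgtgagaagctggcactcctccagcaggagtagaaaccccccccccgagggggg
Ripk3: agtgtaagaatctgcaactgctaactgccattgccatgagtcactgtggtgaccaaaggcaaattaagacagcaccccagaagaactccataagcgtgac
Ninj1: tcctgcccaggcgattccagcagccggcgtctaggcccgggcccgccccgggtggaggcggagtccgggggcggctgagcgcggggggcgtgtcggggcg
The Casp1 and Ripk3 windows have 43% and 47% G or C, and those of Mlkl and Ninj1 62% and 81%. A letter match is a description and shows no binding, and the member with the match is not among the 7 called by limma.

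Sensors and partners of the inflammasome were looked at next. Of 14 tested genes 5 rose and 0 fell by limma (0 fell at unadjusted p under 0.05, by edgeR or by DESeq2), with a median log2 fold change of 0.63. DESeq2 and the authors' deposited table each called 2 higher. Over all genes tested limma called 12.6% higher and 6.36% lower, and DESeq2 6.13% and 7.09%. These shares stand beside the counts of every gene list given here. Aim2, which assembles with Pycard on cytosolic DNA, had 4 and 0 reads in the controls and 11 and 40 reads with the Crat hairpin, and rose by 4.80 ± 0.55 (limma adjusted p = 2.6e-04). Like Zbp1, Aim2 entered the fit only through the Crat hairpin arm, so it had to differ and its place among the 5 is no support. Casp12, which stands next to Casp4 in the genome, rose from 43.2 and 42.4 RPM to 128 and 120 RPM, by 1.51 ± 0.16 in log2 (limma adjusted p = 1.3e-04). Card6, a CARD-containing protein, rose by 1.03, and Txnip, a thioredoxin-binding protein reported to engage Nlrp3, by 0.61. Nlrp3 and Il1b were picked out after their values were seen. Nlrp3, the best-known inflammasome sensor, had 41, 3, 3 and 14 reads and a log2 fold change of 1.74 ± 0.55 (limma adjusted p = 0.0569). Il1b, the cytokine matured by Casp1, had 104, 4, 2 and 17 reads and a value of 0.97 ± 0.54 (limma adjusted p = 0.258).

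Upstream of Ripk1, 15 of 31 death receptor, adaptor and ubiquitin genes rose and 0 fell by limma, with a median of 0.66; the number that rose was 10 after median-of-ratios scaling, 8 by DESeq2 and 7 in the authors' deposited table, and 0 fell at unadjusted p under 0.05, by edgeR or by DESeq2. Birc3, a ubiquitin ligase that modifies Ripk1, rose from 6.25 and 3.78 RPM to 56.0 and 37.6 RPM, by 2.99 ± 0.37 (limma adjusted p = 4.0e-04). Tnfaip3, the ubiquitin-editing enzyme A20, rose from 26.0 and 28.0 RPM to 140 and 120 RPM, by 2.22 ± 0.18 (limma adjusted p = 2.2e-05). These genes are known as brakes on Ripk1-driven death. Tlr3, the endosomal RNA receptor, rose by 1.82. Adar, the RNA editing enzyme that limits Zbp1 activation, rose by 1.65, from 87.1 and 75.7 RPM to 249 and 264 RPM.

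Genes that modify Ripk3 and Mlkl came next. Limma called 12.6% of all genes tested higher and 6.36% lower, so 1 fall among 15 genes is near the share of all genes. Of 15 tested, 5 rose and 1 fell by limma, with a median of 0.11, below that of all genes. After median-of-ratios scaling 2 rose and 3 fell, and DESeq2 and the authors' deposited table each called 0 higher and 1 lower. At unadjusted limma p under 0.05, 6 were higher and 3 lower. By edgeR 5 were higher and 3 lower, where 13.7% and 15.9% of all genes were called. Peli1, a ubiquitin ligase that targets Ripk3, rose by 1.03, and the kinases Dapk1 and Camk2d by 0.79 and 0.63, while the prolyl isomerase Ppia fell by 0.91. After that scaling Peli1 (adjusted p = 0.0804) and Camk2d (adjusted p = 0.0672) did not pass.

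ESCRT-III proteins, which shed and reseal damaged membrane, gave 3 rises and 0 falls among 16 tested genes by limma, with a median of 0.11. At unadjusted p under 0.05 2 were lower, edgeR called 2 higher and 5 lower, DESeq2 called 2 higher and 0 lower, and median-of-ratios scaling gave 2 higher and 2 lower. Of all genes tested, edgeR called 13.7% higher and 15.9% lower. Chmp1a, an ESCRT-III subunit, rose by 1.33 and Vps4b, the ATPase that disassembles the filament, by 1.13. Chmp5 rose by 0.57 in RPM and did not pass after median-of-ratios scaling (adjusted p = 0.157).

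Among 21 genes of intrinsic apoptosis 7 rose and 0 fell by limma, with a median of 0.36 (0 fell at unadjusted p under 0.05 or by DESeq2, and 1 by edgeR; DESeq2 called 4 higher). The cell death promoters Bcl2l11, Bak1 and Bid rose by 1.37, 1.25 and 1.20. Of the caspases named here, Casp4 and Casp12 rose, while Casp1, Casp8, Casp2 (0.15), Casp6 (-0.21) and Casp9 (0.18) did not pass in limma.

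**Figure D4:**
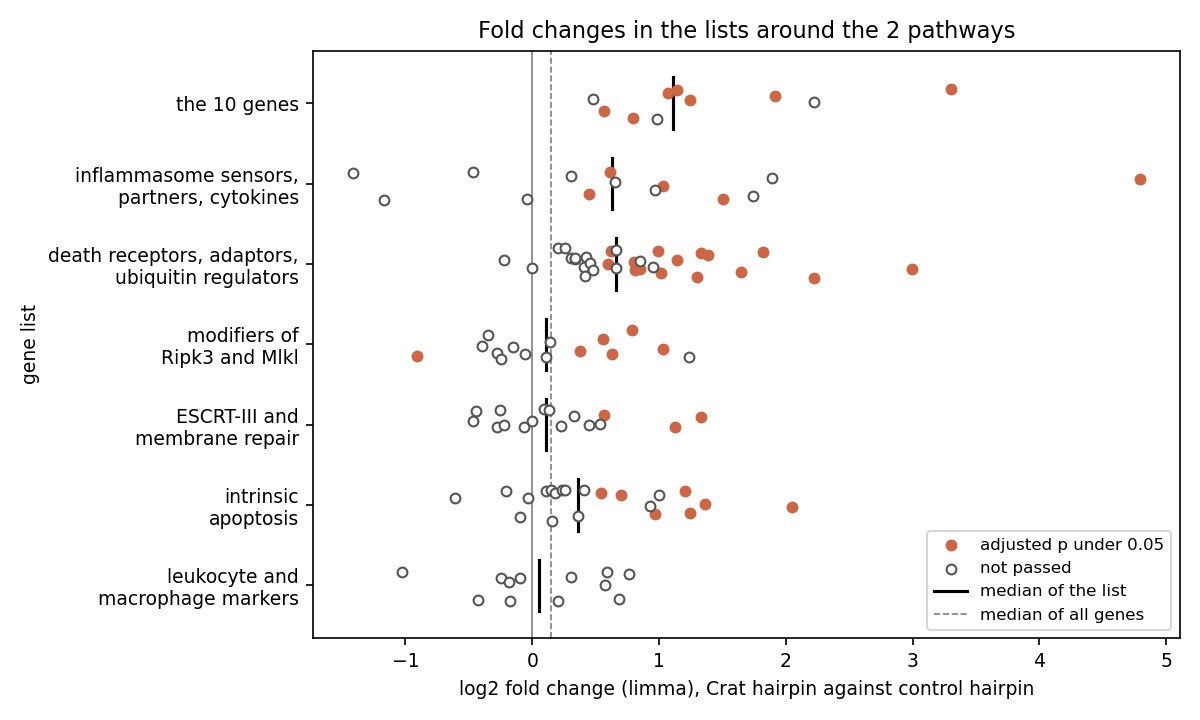
Limma log2 fold changes, Crat hairpin against control hairpin, for the 10 genes, for 5 lists of pathway genes and for leukocyte and macrophage markers; each point is a gene, filled where the adjusted p is under 0.05, black bars are list medians and the dashed line is the median of all genes. The 10 genes have a median of 1.11 and all lie above 0. Casp1 and Zbp1 among them passed the filter only through the Crat hairpin arm. The leukocyte markers have a median of 0.05 and no filled point, on at most 5 reads each in Crat hairpin replicate 1.

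Several of the 10 genes are known to be abundant in macrophages and other leukocytes, so markers of those cells are given beside them. Of 22 leukocyte and macrophage markers 14 were in the table and 12 were tested; none rose or fell by limma (0 and 0, also at unadjusted p under 0.05, by edgeR and by DESeq2), and their median log2 fold change was 0.05. Their summed level was 66.7 and 65.1 RPM in the controls and 80.9 and 75.2 RPM with the Crat hairpin. In Crat hairpin replicate 1 the markers Cd3e, Coro1a, Csf1r and Mrc1 were at 0, and in Crat hairpin replicate 2 Mrc1 was. A single read in Crat hairpin replicate 1 is 3.11 RPM, and the controls held each of these markers at 3.03 RPM or less. A 0 in that library is therefore no sign of a loss. Among 9 fibroblast markers 5 fell and 2 rose, and their sum was 22932 and 23922 RPM in the controls and 16805 and 17143 RPM with the Crat hairpin. Of the smooth muscle markers 4 of 5 fell, and of 5 tested endothelial markers 1 rose and 1 fell. The part of cell type composition in the values of the 10 genes was not tested.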

How the data were processed

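RNA sequencing covered 4 NRVM libraries, 2 per arm. The submitters' processing notes name kallisto, DESeq2 and the build mRatBN7.2; the sources used here give neither the step from transcripts to genes nor any filter. As deposited by the authors, the table has 14318 rows. Per the file headers its library columns hold TPM. However, 100% of values in every library are whole multiples (within 0.02) of a step, so the deposited signal is RPM and reads were recovered by division. Each of the 140 identifiers on several rows was used once. The deposited p-value columns, raw and adjusted, served as an alternative only.

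Values were analysed as log2(RPM + 1), keeping genes whose mean reached 1 RPM, with limma 3.58.1 in R 4.3.3 (variance trend, two-sided, Benjamini-Hochberg over all genes). The design assumed TPM, and the test was kept for RPM. Every library had equal weight in limma, although depth differed 73.7-fold between the deepest and the shallowest. edgeR 4.0.16 (quasi-likelihood, TMM) and DESeq2 1.42.0 were run on recovered reads. The limma and edgeR fits were also run on simulated counts, with changed genes of random sign. That simulation differs from these data in the number and direction of changes, so it is no check of the calls given here. Other alternatives were pseudocounts of 0.5 and 5, no filter or a mean of 5, median-of-ratios scaling, no trend, a robust prior, a replicate block, each library left out and 1 thinned draw. The text names all 10 genes and Crat. From each list it names the 4 largest changes among genes that passed, or, with fewer than 2 such genes, the 2 highest by mean. Some results of the apoptosis list are not reported here. The genes and lists were chosen with earlier results of these data known.

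The labels do not tell whether libraries of an arm came from separate cultures, so p-values measure only the spread between these libraries, which may be technical. With 2 libraries per arm, the smallest p of an exact permutation test is 0.333. Poisson intervals cover counting error only. RefSeq tables are of assembly GRCr8, another build than the authors', and were matched by symbol.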

Additional observations from a re-analysis of the deposited data

How the results depend on the processing

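Of the 10 genes 7 were higher in the main analysis, and 0 were lower there and in every alternative run. The number higher was 4 with DESeq2 on recovered reads and in the authors' deposited adjusted p-values, 1 without a variance trend (Mlkl) and 0 after thinning to the shallowest library, and it ran from 2 to 8 with a library left out. It was 7 at both other pseudocounts, with a mean of at least 5 and with the robust prior, 5 without a filter or with median-of-ratios scaling, and 8 in edgeR. Over all genes, 1598 and 1698 of 12949 were higher at pseudocounts of 0.5 and 5, and 1673 of 12949 with the robust prior. The count was 1727 of 10830 with a mean of at least 5, and 1439 of 14137 without a filter. With the stricter filter Casp1 was not tested. In the full fit 2454 genes changed, 1631 up and 823 down; median-of-ratios scaling gave 1042 up and 1252 down. The number changed was 1486 in the authors' adjusted p-values, 1613 in DESeq2, 3840 in edgeR, 345 without a variance trend and 127 after thinning, and it ran from 601 to 6252 with a library left out. The cause of these differences was not tested, beyond the smaller number of reads in the thinned draw and of libraries in the fits with a library left out.

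No pairing by the replicate numbers in the titles was seen. Deviations of control replicate 1 and Crat hairpin replicate 1 from their group means had a correlation of 0.0061 across genes. Counting error in Crat hairpin replicate 1 (321516 reads) can hide a pairing, so this value cannot exclude it. With the replicate block 7 of the 10 genes and 2596 genes in all were called. Depth limits Zbp1, Casp1, Pycard and Casp8, each with a library of fewer than 10 reads.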

Other observations

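The protein-coding genes that overlap Ripk1, Ripk3 and Casp8 had values of their own. Serpinb6a, a serpin that overlaps Ripk1 in the RefSeq annotation, fell from 152 and 170 RPM to 68.4 and 64.7 RPM, with a change of -1.26 ± 0.14 in log2 (limma adjusted p = 2.0e-04), the opposite direction to Ripk1. Nfatc4, a calcineurin-regulated transcription factor that overlaps Ripk3, stood at 11.1 and 11.3 RPM in the controls and at 31.1 and 20.3 RPM with the Crat hairpin, a log2 fold change of 1.10 ± 0.34 (limma adjusted p = 0.0488). Cflar, which overlaps Casp8, had 18.3 and 34.8 RPM in the controls, and Casp8 7.18 and 12.9 RPM, so that for both genes control replicate 2 was the higher of the controls.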
